A study of Saccharomyces cerevisiae with 12 samples.

Results

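The 9 genes described here encode the enzymes that make and break down glutamate, glutamine and 4-aminobutyrate (GABA) in Saccharomyces cerevisiae, together with the GABA permease. They were taken by systematic name from the deposited table of read counts, which holds 7126 genes, and they are GDH1 (YOR375C), GDH2 (YDL215C), GDH3 (YAL062W), GLT1 (YDL171C), GLN1 (YPR035W), GAD1 (YMR250W), UGA1 (YGR019W), UGA2 (YBR006W) and UGA4 (YDL210W). All 9 passed the filter on low counts and were among the 6068 genes tested. The libraries are of total RNA, depleted of ribosomal RNA, from strains in the BY background. The groups were cells that lack the intron of MMS2 (mms2Δi), cells that lack the intron of YSF3 (ysf3Δi) and wild type (WT) cells. MMS2 encodes a ubiquitin-conjugating enzyme variant and YSF3 a small splicing factor subunit. Each of these 3 genotypes had 2 strains, and each strain was sampled after 48 h of culture and in log phase, so there were 6 groups of 2 libraries. Every culture was in synthetic minimal medium with 2% D-glucose and supplements that included histidine, leucine, uracil and lysine. The comparisons ask how the genes respond to 48 h of culture and whether the loss of either intron changes their level.

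Glutamate and glutamine donate nearly all the nitrogen in the cell's amino acids, nucleotides and cofactors. The NADP-linked glutamate dehydrogenases Gdh1 and Gdh3 join ammonium to 2-oxoglutarate, a citric acid cycle intermediate, to make glutamate, and the NAD-linked enzyme Gdh2 runs the reaction the other way, releasing ammonium. Glutamine synthetase, Gln1, adds a further ammonium to glutamate, and glutamate synthase, Glt1, turns glutamine and 2-oxoglutarate back into a pair of glutamates. In the GABA shunt Gad1 decarboxylates glutamate to GABA, the transaminase Uga1 converts GABA to succinate semialdehyde, and Uga2 oxidises that to succinate, which re-enters the citric acid cycle. Uga4 carries GABA across a membrane. Several of these genes are known targets of GATA factors such as Gln3, of the Hap activators, of Gcn4 and, for the UGA genes, of Uga3.

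All 9 genes have a single coding exon in the RefSeq annotation of sacCer3 (R64), and no annotated gene overlaps them. GDH3 lies on chromosome I from 31567 to 32940 on the plus strand, and GDH1 on chromosome XV from 1041678 to 1043042 on the minus strand. Their coding sequences were 76.6% identical over 1368 aligned bases, so most reads of one differ from the other. On chromosome IV lie GDH2 (70640 to 73918, minus strand), UGA4 (84270 to 85985, plus strand) and GLT1 (149203 to 155640, minus strand). GLN1 lies on chromosome XVI from 642208 to 643320, GAD1 on chromosome XIII from 770801 to 772558, UGA1 on chromosome VII from 525229 to 526644 and UGA2 on chromosome II from 247010 to 248503, all on the plus strand.

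The 600 bases before each start codon were searched on both strands for 5 motifs: GATAAG (the GATA site of nitrogen regulation), AGGGG (the stress response element), CCAAT (the Hap site), TGACTC (the Gcn4 site) and CCGNCGG (the CCG triplets of the GABA response element). The stretches below hold matches of the members with the largest phase changes (GDH3, GDH2, GLN1 and GAD1), of GDH1, which differed between the deletions and WT, and of UGA1 and UGA4 from the GABA route. Each is the RefSeq R64 sequence on the gene's own strand, and capitals mark every match of the 5 motifs within it, printed as the reverse complement of the motif where it lies on the other strand. The stretch of GDH3 is chrI:31267-31366, that of GDH1 chrXV:1043443-1043522 on the minus strand, that of GDH2 chrIV:74119-74218 on the minus strand, that of GLN1 chrXVI:641908-641987, that of GAD1 chrXIII:770581-770680, that of UGA1 chrVII:524899-524998 and that of UGA4 chrIV:83820-83899.
GDH3: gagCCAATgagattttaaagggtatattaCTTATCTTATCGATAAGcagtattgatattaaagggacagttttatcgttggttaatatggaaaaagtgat
GDH1: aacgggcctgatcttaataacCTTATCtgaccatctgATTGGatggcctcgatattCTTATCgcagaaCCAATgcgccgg
GDH2: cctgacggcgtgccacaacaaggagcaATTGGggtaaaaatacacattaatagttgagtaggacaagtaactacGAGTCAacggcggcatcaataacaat
GLN1: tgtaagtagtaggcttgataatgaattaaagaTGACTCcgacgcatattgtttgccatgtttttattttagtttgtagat
GAD1: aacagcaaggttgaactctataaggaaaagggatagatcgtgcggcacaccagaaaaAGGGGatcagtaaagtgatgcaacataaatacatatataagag
UGA1: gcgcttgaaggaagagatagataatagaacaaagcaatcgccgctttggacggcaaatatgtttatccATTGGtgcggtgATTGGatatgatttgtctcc
UGA4: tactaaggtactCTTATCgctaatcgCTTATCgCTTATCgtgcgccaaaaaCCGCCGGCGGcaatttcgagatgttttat

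GDH3 and UGA4 each held 3 GATAAG matches within a short run, starting at -271, -266 and -260 from the start codon of GDH3 and at -438, -424 and -417 from that of UGA4. The first pair in GDH3 shares a base. GDH1 also held 3, of which the stretch shows those at -459 and -424, and there the dubious neighbouring reading frame YOR376W is annotated too. GLT1 held 2 and GLN1 1, and none was found before GDH2, GAD1, UGA1 or UGA2. Of all 6018 windows of the same length 26.7% held at least 1 GATAAG. The 2 overlapping CCGNCGG matches of UGA4 start at -399 and -396, and UGA1 held 1 at -598 and GDH2 1 at -386, outside the stretches shown, while 3.44% of the windows held this motif. The AGGGG of GAD1 starts at -163 (39.6% of the windows held one), and the CCAAT matches of UGA1 at -262 and -250 (70.2%). The stretch of GDH3 also holds a CCAAT at -297 and that of GDH1 at -443 and -412. GDH2 held a TGACTC at -226 (15.3% of the windows) and a CCAAT at -273, and GLN1 a TGACTC at -268. Outside the stretches shown, GDH1 held a TGACTC at -492 and GLT1 at -572. An AGGGG also lay at -510 of GDH1, -167 of GLT1 and -279 of UGA4. Further CCAAT matches lay before GDH1 (-587, -339 and -172), GDH2 (-554), GDH3 (-341), GLT1 (-486), UGA2 (-541, -387 and -199) and UGA4 (-318). A match is a run of letters and not evidence of binding.

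Library totals ran from 4871513 to 16581925 counts, and the shallowest were strain 1 of WT and of mms2Δi at 48 h. Levels are counts scaled to library size (CPM) after scaling by the trimmed mean of M-values. The summed level of 4 stationary phase markers (HSP12, SPG4, HSP26 and SIP18) was 3071 to 4525 CPM at 48 h and 8.39 to 11.97 CPM in log phase. That of 4 markers of growing cells was 88.7 to 148 CPM at 48 h and 548 to 799 CPM in log phase, so each library bore the markers of its labelled phase. Counts are per gene, so they do not show the intron itself: MMS2 in mms2Δi stood at 0.12 at 48 h and 0.40 in log phase over WT on the log2 scale (adjusted p of 0.669 and 0.0891), and YSF3 in ysf3Δi at -0.10 and 0.77 (adjusted p of 0.897 and 0.0856). Strain 1 of WT differed from the other 5 strains in mating type. Its 5 alpha-cell markers summed to 125 CPM at 48 h and 2538 CPM in log phase, against 24.4 to 45.4 CPM in the other 10 libraries, while its a-cell markers summed to 11.3 and 14.3 CPM, against 80.7 to 102 CPM at 48 h and 799.9 to 1269 CPM in log phase. The a-factor gene MFA1 was at 0 in every library. The part of mating type in any comparison with WT was not tested, so the text says where a member's call against WT ends without this strain. For the gene lists this is given only in part, and some of their log phase calls also ended without it. The 48 h and log libraries of a genotype come from the same strains, and nothing says more of how independent the cultures were, so p-values measure the spread between these libraries. A lower level in bulk RNA can come from fewer cells that use a gene or from less of its RNA per cell, and these cannot be told apart. CPM are relative to the other RNA of a library, so a rise or fall is not a change in the amount per cell.

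Per kilobase of coding sequence, GLN1 was the highest member in all 6 groups. In WT at 48 h the order was GLN1 (945 ± 114 CPM per kb, mean ± SD, n = 2 here and below), GDH3 (614 ± 75.2), GLT1 (495 ± 48.3), GDH1 (289 ± 52.5), GAD1 (122 ± 20.4), UGA2 (79.7 ± 2.86), UGA1 (78.7 ± 0.262), GDH2 (66.2 ± 15.4) and UGA4 (22.7 ± 3.92). In log phase it was GLN1 (5898 ± 402), GDH2 (1602 ± 444), GDH1 (324 ± 13.0), GLT1 (301 ± 13.6), UGA1 (151 ± 30.3), UGA2 (70.1 ± 5.04), UGA4 (9.74 ± 3.56), GDH3 (4.65 ± 0.167) and GAD1 (4.53 ± 1.79). The neighbours UGA2 and UGA1 overlapped at 48 h, as did GDH3 and GAD1 in log phase, and the other neighbours were apart in both libraries. GDH3 and GDH2 thus changed places between the phases: among all 6086 genes with a length, GDH3 ranked 99 at 48 h and 5126 in log phase, and GDH2 ranked 2079 at 48 h and 57 in log phase. Glutamine synthetase ranked 47 at 48 h and 5 in log phase.

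**Figure D1:**
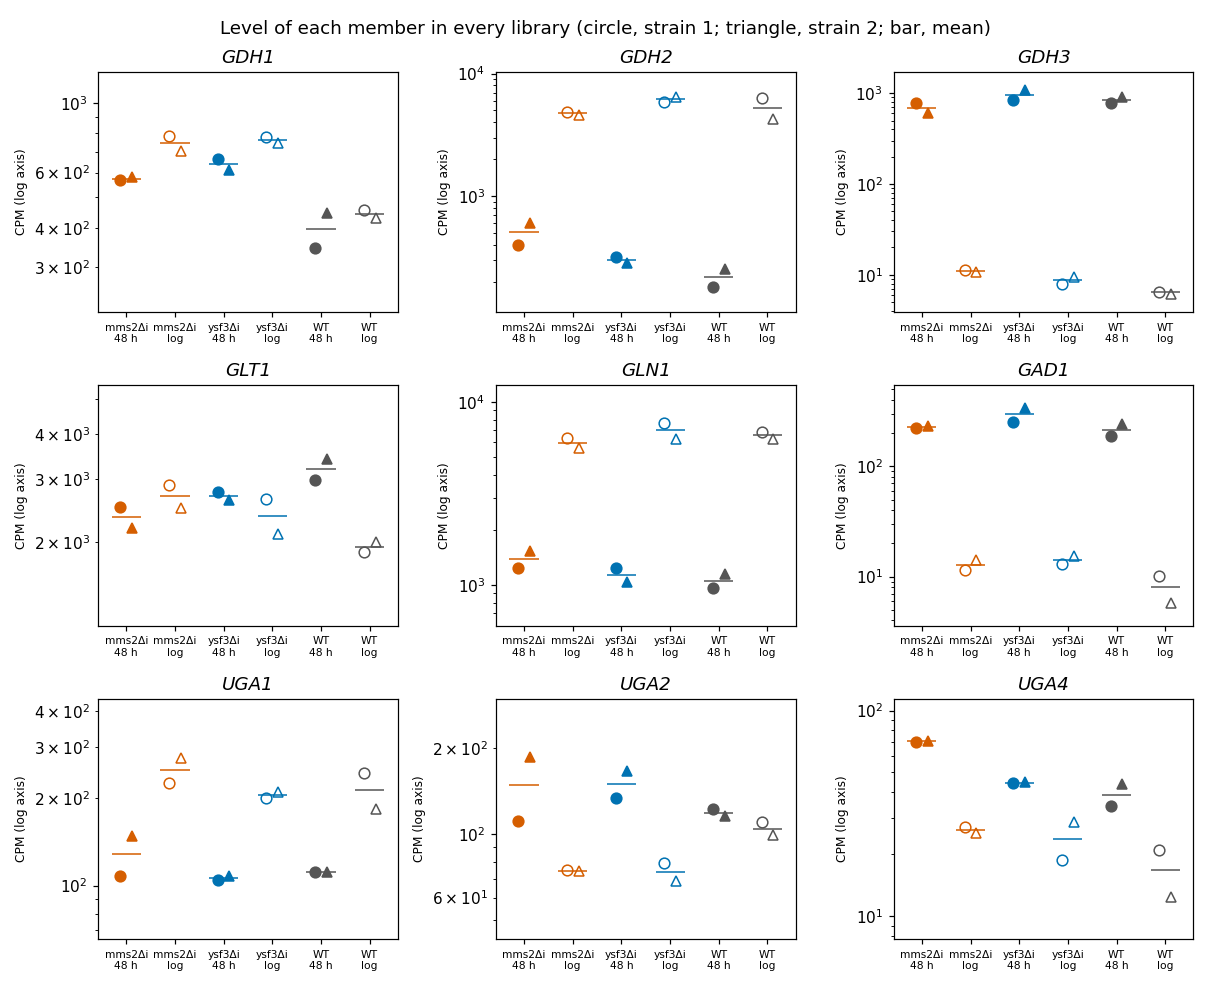
Level of each of the 9 genes in every library, in CPM on a log axis whose range differs between panels. Circles are strain 1, triangles strain 2 and bars the mean of both, with filled symbols for 48 h and open symbols for log phase. GDH3 and GAD1 stand far higher at 48 h and GDH2 and GLN1 far lower in all 3 genotypes, while GDH1 lies higher in both deletions than in WT.

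The strongest responses to 48 h of culture were opposite in direction for enzymes of the same substrate. GDH3 and GAD1 rose and GDH2, GLN1 and UGA1 fell in each genotype, and UGA4 rose. By the quasi-likelihood test of edgeR, with a call at an adjusted p under 0.05, 8 of the 9 members changed in mms2Δi (4 higher, 4 lower), 7 in ysf3Δi (4 higher, 3 lower) and 7 in WT (4 higher, 3 lower). Most genes changed as well: 64.1% of the 6068 genes tested were called in mms2Δi (33.4% higher, 30.7% lower), 66.8% in ysf3Δi (33.9% higher, 32.9% lower) and 67.1% in WT (32.8% higher, 34.3% lower), so the shares of members called are not far from those of all genes. The median log2 fold change of the 9 genes was -0.20, 0.19 and 0.18 in mms2Δi, ysf3Δi and WT, beside 0.06, 0.03 and -0.01 over all genes. The counts therefore do not set the members apart, and the size and sign of each change are described gene by gene below. The value after ± on a log2 fold change is an approximate error: the change over the root of its F statistic, and no standard error from the model.

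**Figure D2:**
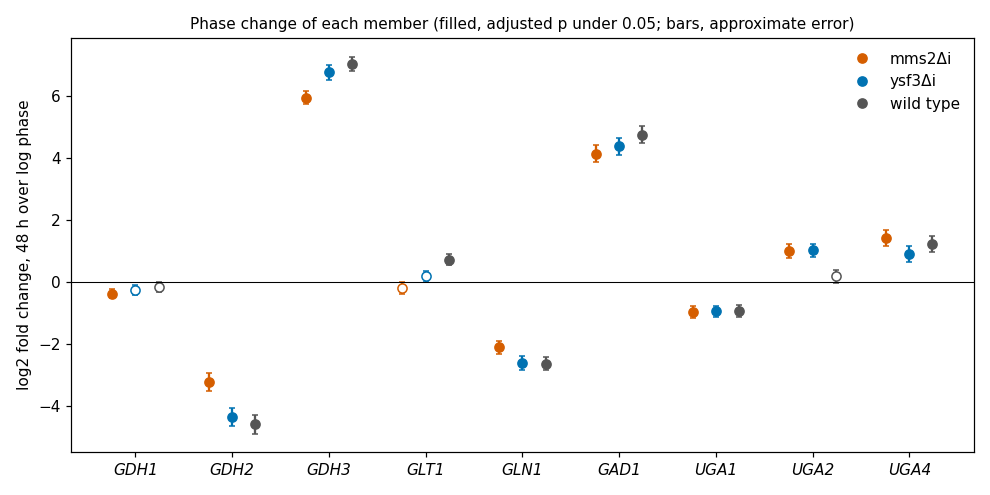
Log2 fold change at 48 h over log phase for each member in mms2Δi (orange), ysf3Δi (blue) and WT (grey), with the approximate error as bars. Filled points passed an adjusted p under 0.05. GDH3 lies between 5.96 and 7.04 and GAD1 between 4.14 and 4.76, GDH2 lies between -4.60 and -3.23, and GDH1 and GLT1 lie within 1 unit of 0.

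Of the NADP-linked pair that makes glutamate, GDH3 carried the phase response. GDH3 had 775 and 599 CPM at 48 h in strains 1 and 2 of mms2Δi, against 11.3 and 10.8 CPM in log phase. In ysf3Δi it had 835 and 1074 CPM at 48 h and 7.88 and 9.54 CPM in log phase. In WT it had 771 and 917 CPM at 48 h and 6.55 and 6.22 CPM in log phase. Every library at 48 h was far above every library in log phase. The log2 fold changes were 5.96 ± 0.22 in mms2Δi (adjusted p of 1.56e-08), 6.77 ± 0.23 in ysf3Δi (adjusted p of 9.56e-09) and 7.04 ± 0.24 in WT (adjusted p of 1.08e-08).

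GDH1, the isozyme that most glutamate synthesis on glucose depends on, barely moved. It had 568 and 578 CPM at 48 h in mms2Δi, against 786 and 705 CPM in log phase. The ysf3Δi strains gave 664 and 611 CPM at 48 h and 779 and 747 CPM in log phase, and WT 344 and 445 CPM at 48 h and 455 and 429.6 CPM in log phase. The libraries of the phases were apart in both deletions and overlapped in WT. GDH1 fell by 0.38 ± 0.15 on the log2 scale in mms2Δi (adjusted p of 0.0484), a call that ended with strain as a block (adjusted p of 0.106) and in 6 of the 12 fits that leave out 1 library, those without an mms2 library or a ysf3 library at 48 h. The changes of -0.26 ± 0.15 in ysf3Δi (adjusted p of 0.155) and -0.16 ± 0.15 in WT (adjusted p of 0.364) did not pass.

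The balance of the pair therefore turned over. Per length, GDH3 made up 57.5% and 50.7% of GDH1 plus GDH3 at 48 h in strains 1 and 2 of mms2Δi, 55.5% and 63.6% in ysf3Δi and 69.0% and 67.2% in WT. In log phase its mean share was 1.45 ± 0.0589% in mms2Δi, 1.12 ± 0.182% in ysf3Δi and 1.41 ± 0.00606% in WT. At 48 h GDH3 was the more abundant of the pair in all 6 libraries, and in log phase it was at most 1.49%. The summed level of both genes was 919.7 ± 84.9 CPM per kb at 48 h and 554 ± 42.4 in log phase in mms2Δi, 1162 ± 95.5 and 565 ± 15.3 in ysf3Δi, and 904 ± 128 and 329 ± 13.2 in WT. The shares and sums are descriptions and were not tested.

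**Figure D3:**
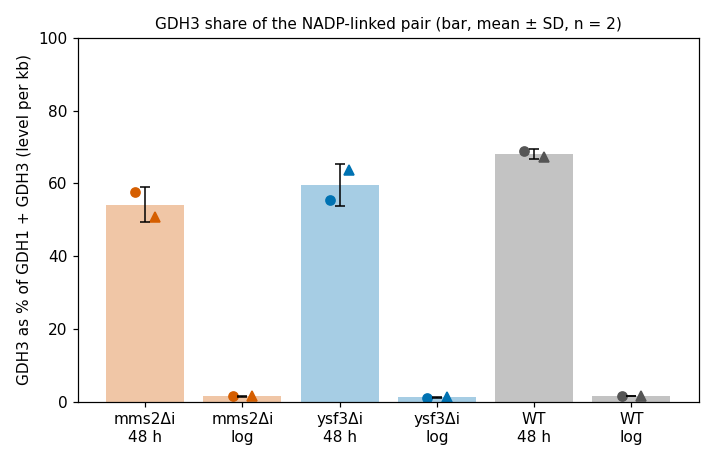
Share of GDH3 in the summed level per kilobase of the NADP-linked pair GDH1 and GDH3, in percent. Bars are means with SD (n = 2), circles strain 1 and triangles strain 2. The 3 groups at 48 h reach means of 54.1 to 68.1% and the 3 log groups stay at 1.12 to 1.45%.

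GDH2, which breaks glutamate down, went the opposite way. It had 403 and 607 CPM at 48 h in mms2Δi, against 4839 and 4627 CPM in log phase. The ysf3Δi strains had 319.8 and 285 CPM at 48 h and 5902 and 6449 CPM in log phase, and WT 181 and 253 CPM at 48 h and 6281 and 4223 CPM in log phase. No library at 48 h came near a library in log phase, and the strains of WT were less alike in log phase than those of either deletion. GDH2 fell, with log2 fold changes of -3.23 ± 0.28 in mms2Δi (adjusted p of 2.70e-06), -4.35 ± 0.30 in ysf3Δi (adjusted p of 4.27e-07) and -4.60 ± 0.30 in WT (adjusted p of 2.97e-07). Per length, GDH2 took 26.6 ± 5.37% of GDH1 plus GDH2 at 48 h and 72.6 ± 0.905% in log phase in mms2Δi, 16.5 ± 0.318% and 77.1 ± 1.62% in ysf3Δi, and 18.5 ± 0.781% and 82.8 ± 3.41% in WT. In log phase the transcript of the enzyme that releases ammonium from glutamate was thus the more abundant of the pair, and at 48 h the less abundant.

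Glutamine synthetase and glutamate synthase form a cycle, and their transcripts did not move together. GLN1 had 1239 and 1543 CPM at 48 h in mms2Δi, against 6358 and 5600.0 CPM in log phase. It had 1240.4 and 1039.5 CPM at 48 h and 7677 and 6283 CPM in log phase in ysf3Δi, and 962 and 1142 CPM at 48 h and 6881 and 6249 CPM in log phase in WT. All 6 libraries at 48 h were below all 6 in log phase. GLN1 fell, with log2 fold changes of -2.10 ± 0.21 in mms2Δi (adjusted p of 7.46e-06), -2.61 ± 0.21 in ysf3Δi (adjusted p of 1.59e-06) and -2.64 ± 0.21 in WT (adjusted p of 1.42e-06).

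GLT1, the glutamate synthase gene, had 2498 and 2187 CPM at 48 h in mms2Δi and 2875 and 2494 CPM in log phase. The ysf3Δi strains had 2762 and 2619 CPM at 48 h and 2627 and 2104 CPM in log phase, and WT 2969 and 3408 CPM at 48 h and 1876 and 1999 CPM in log phase. The phases overlapped in both deletions and were apart in WT. GLT1 rose by 0.72 ± 0.18 in WT (adjusted p of 0.00472), while the changes of -0.20 ± 0.18 in mms2Δi (adjusted p of 0.358) and 0.19 ± 0.18 in ysf3Δi (adjusted p of 0.384) did not pass. The call in WT ended without both libraries of strain 1 (0.75, adjusted p of 0.0574) and without both of strain 2 (0.66, adjusted p of 0.0881). The ratio of GLN1 to GLT1 per length was 3.48 ± 0.856 at 48 h and 12.9 ± 0.138 in log phase in mms2Δi, 2.45 ± 0.213 and 17.1 ± 0.261 in ysf3Δi, and 1.91 ± 0.0452 and 19.6 ± 2.22 in WT.

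The genes of the GABA shunt also split. GAD1, the glutamate decarboxylase gene at its entry, had 222 and 231 CPM at 48 h in mms2Δi and 11.5 and 14.1 CPM in log phase. It had 254 and 340.4 CPM at 48 h and 13.1 and 15.4 CPM in log phase in ysf3Δi, and 189.8 and 241 CPM at 48 h and 10.2 and 5.75 CPM in log phase in WT. The phases were far apart in all strains. GAD1 rose by 4.14 ± 0.27 in mms2Δi (adjusted p of 3.66e-07), by 4.39 ± 0.27 in ysf3Δi (adjusted p of 2.28e-07) and by 4.76 ± 0.28 in WT (adjusted p of 1.54e-07).

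UGA1, the GABA transaminase gene, moved against GAD1. It had 108 and 148 CPM at 48 h in mms2Δi and 227 and 276 CPM in log phase. The ysf3Δi strains had 105 and 108 CPM at 48 h and 200.0 and 211 CPM in log phase, and WT 111 and 112 CPM at 48 h and 244 and 184 CPM in log phase. UGA1 was lower at 48 h in every strain, and the size was nearly the same in each genotype: the log2 fold changes were -0.97 ± 0.18 in mms2Δi (adjusted p of 0.000748), -0.95 ± 0.18 in ysf3Δi (adjusted p of 0.000795) and -0.94 ± 0.18 in WT (adjusted p of 0.000851).

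UGA2, the succinate semialdehyde dehydrogenase gene that completes the shunt, had 111 and 186 CPM at 48 h in mms2Δi and 75.0 and 74.3 CPM in log phase. In ysf3Δi it had 134 and 167 CPM at 48 h and 79.1 and 68.8 CPM in log phase, and in WT 122 and 116 CPM at 48 h and 110.1 and 99.4 CPM in log phase. The libraries of the phases were apart in each genotype, but by little in WT. UGA2 rose by 1.00 ± 0.21 in mms2Δi (adjusted p of 0.00183) and by 1.02 ± 0.21 in ysf3Δi (adjusted p of 0.00146), and the change of 0.18 ± 0.21 in WT (adjusted p of 0.458) did not pass.

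UGA4, the permease gene, was the lowest member per length at 48 h. It had 70.5 and 71.2 CPM at 48 h in mms2Δi and 27.1 and 25.3 CPM in log phase. The ysf3Δi strains had 44.2 and 45.1 CPM at 48 h and 18.7 and 28.8 CPM in log phase, and WT 34.2 and 43.7 CPM at 48 h and 21.0 and 12.4 CPM in log phase. Each strain was higher at 48 h. UGA4 rose by 1.44 ± 0.26 in mms2Δi (adjusted p of 0.000553), by 0.91 ± 0.26 in ysf3Δi (adjusted p of 0.00894) and by 1.23 ± 0.26 in WT (adjusted p of 0.00157). The call in ysf3Δi ended without strain 1 in log phase (0.63, adjusted p of 0.0705) and that in WT without both libraries of strain 2 (0.70, adjusted p of 0.0596).

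Whether a phase change differed between a deletion and WT was tested as the difference of the changes. No gene of the 6068 passed in either deletion by edgeR (0%), although 568 genes had an unadjusted p under 0.05 for mms2Δi and 284 for ysf3Δi, and DESeq2 called 10 genes for mms2Δi and 0 for ysf3Δi. The differences of mms2Δi from WT were 1.37 ± 0.37 for GDH2, -1.09 ± 0.27 for GDH3, -0.92 ± 0.26 for GLT1 and 0.81 ± 0.30 for UGA2, each with an adjusted p of 0.502. That of GLN1 was 0.54 ± 0.29 (adjusted p of 0.564), and those of the other 4 members lay between -0.62 and 0.20. DESeq2 called GDH2 (1.33, adjusted p of 0.0146), GDH3 (-1.12, adjusted p of 0.0351) and GLT1 (-0.95, adjusted p of 0.0179), 3 of its 10 genes. After its own filter DESeq2 adjusted over only 1370 genes here, against 6068 in edgeR, so the adjusted p-values of the tests are not alike. For GDH2 the log2 CPM ratio of 48 h to log phase was -3.59 and -2.93 in strains 1 and 2 of mms2Δi and -5.11 and -4.06 in WT. For GDH3 it was 6.10 and 5.80 against 6.88 and 7.20. The strains of mms2Δi and WT were also apart for GLT1, UGA2 and GLN1. These ratios come from the libraries already tested and add no support to the tests. The share of all genes apart in this way is not given. In ysf3Δi the largest differences were 0.84 ± 0.30 for UGA2 and -0.53 ± 0.26 for GLT1 (adjusted p of 0.905 for both), and the other 7 members lay between -0.38 and 0.24. So the calls of UGA2 in the deletions and of GLT1 in WT are not shown to differ between genotypes by edgeR.

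Between the deletions and WT the clearest difference was in GDH1, which was higher in both deletions in both phases. Both deletions are set against the same 4 WT libraries, so their results are not independent. In log phase GDH1 had 786 and 705 CPM in mms2Δi, against 455 and 429.6 CPM in WT, and it rose by 0.75 ± 0.15 on the log2 scale (adjusted p of 0.0126). At 48 h it had 568 and 578 CPM in mms2Δi, against 344 and 445 CPM in WT, a rise of 0.54 ± 0.15 (adjusted p of 0.0494). With the 779 and 747 CPM of ysf3Δi in log phase the rise was 0.79 ± 0.15 (adjusted p of 0.00767), and with its 664 and 611 CPM at 48 h it was 0.69 ± 0.15 (adjusted p of 0.0449). All 8 libraries of the deletions were above all 4 of WT. Members that were not called could also stand apart from WT in a comparison, such as GAD1 (higher) and GLT1 (lower) in ysf3Δi at 48 h. The share of all genes apart in this way is not given. Scaling by library totals alone lowered the median of all genes against WT by more than 0.1 on the log2 scale (in log phase -0.15 in mms2Δi, with 602 genes higher and 1351 lower, and -0.18 in ysf3Δi, with 613 and 1443), and the changes of GDH1 stayed above 0, at 0.61 and 0.62 in log phase and at 0.38 and 0.58 at 48 h, where both calls ended (adjusted p of 0.104 and 0.0636). Both calls at 48 h were close to the threshold: they ended with strain number as a block (adjusted p of 0.0777 for mms2Δi and 0.0768 for ysf3Δi), and in 10 and 9 of the 12 fits that leave out 1 library. Without both libraries of WT strain 1 the log2 fold changes at 48 h were 0.34 for mms2Δi (adjusted p of 0.436) and 0.52 for ysf3Δi (adjusted p of 0.437). The calls in log phase held without strain 1 and ended without both libraries of WT strain 2 (0.71, adjusted p of 0.0985, and 0.75, adjusted p of 0.0639), without its log library alone and, for mms2Δi, without strain 2 of the deletion in log phase.

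In log phase 2 of the 9 members were called in mms2Δi, where 27.2% of all genes tested were called (13.9% higher, 13.3% lower), and both were higher. Beside GDH1 this was GDH3, with 11.3 and 10.8 CPM in mms2Δi against 6.55 and 6.22 CPM in WT, a rise of 0.79 ± 0.20 (adjusted p of 0.0222). The groups did not overlap, and the level was far below that at 48 h in the same strains. This call ended with library totals as the scaling (0.65, adjusted p of 0.0548), without either mms2 library or WT strain 2 in log phase (0.75 to 0.84) and without both libraries of WT strain 1 (0.84, adjusted p of 0.0585) or of WT strain 2 (0.75, adjusted p of 0.152). Members that did not pass were GLT1 at 0.47 ± 0.18 (adjusted p of 0.0737), GAD1 at 0.69 ± 0.26 (adjusted p of 0.0738), UGA4 at 0.65 ± 0.26 (adjusted p of 0.0811) and UGA2 at -0.49 ± 0.21 (adjusted p of 0.104). UGA2 passed as lower with library totals (-0.63, adjusted p of 0.0334) and with only the libraries compared (-0.48, adjusted p of 0.0406). Without both libraries of WT strain 1, GAD1 (1.17, adjusted p of 0.0195) and UGA4 (1.09, adjusted p of 0.0208) passed, and DESeq2 called GLT1, GAD1 and UGA4 (adjusted p of 0.0248, 0.0334 and 0.0463). GDH2, GLN1 and UGA1 lay between -0.15 and 0.23.

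At 48 h mms2Δi again had 2 members called, both higher, where 10.6% of all genes were called (8.54% higher, 2.09% lower). GDH2 had 403 and 607 CPM in mms2Δi against 181 and 253 CPM in WT, and rose by 1.22 ± 0.26 (adjusted p of 0.0247). Both strains of the deletion were above both of WT. The call ended without strain 2 of mms2Δi at 48 h or strain 1 of WT at 48 h (0.89 to 1.48 over all 12 fits), and without both libraries of WT strain 1 it stood at 0.97 (adjusted p of 0.211). UGA4 was at 0.85 ± 0.26 (adjusted p of 0.0567), GLT1 at -0.44 ± 0.18 (adjusted p of 0.125) and GLN1 at 0.40 ± 0.20 (adjusted p of 0.199). DESeq2 called UGA4 (0.83, adjusted p of 0.0165) and GLT1 (-0.47, adjusted p of 0.0413), and the remaining 4 members lay between -0.30 and 0.33.

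In ysf3Δi 2 members passed in log phase, both higher, beside 27.2% of all genes (13.7% higher, 13.5% lower). The second was GAD1, with 13.1 and 15.4 CPM in ysf3Δi against 10.2 and 5.75 CPM in WT, a rise of 0.84 ± 0.26 (adjusted p of 0.0371). The groups did not overlap, but the WT strains were far apart: the change was 1.32 without WT strain 1 in log phase and 0.48 without strain 2, where the call ended, as it did without either ysf3 library in log phase and with strain number as a block (adjusted p of 0.0532). UGA2 at -0.50 ± 0.21 (adjusted p of 0.0993), GDH3 at 0.45 ± 0.21 (adjusted p of 0.123) and UGA4 at 0.51 ± 0.26 (adjusted p of 0.158) did not pass, though UGA4 did without both libraries of WT strain 1 (0.95, adjusted p of 0.0268). With library totals GAD1 did not pass (0.68, adjusted p of 0.0791) and UGA2 passed as lower (-0.67, adjusted p of 0.0252), so 1 member was higher and 1 lower. At 48 h GDH1 was the only member called, where 2.77% of all genes were called (2.49% higher, 0.28% lower). GDH2 was at 0.48 ± 0.26 (adjusted p of 0.326) and GAD1 at 0.47 ± 0.23 (adjusted p of 0.287), and the other 6 members lay between -0.25 and 0.34.

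**Figure D4:**
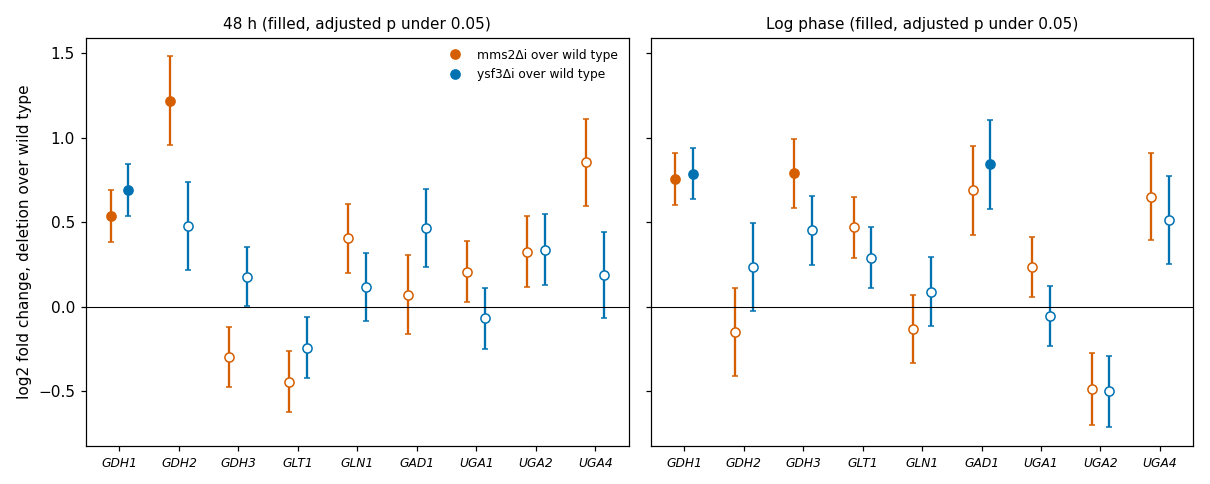
Log2 fold change of each member in mms2Δi (orange) and ysf3Δi (blue) over WT, at 48 h on the left and in log phase on the right, with the approximate error as bars and filled points for an adjusted p under 0.05. GDH1 is filled in all 4 comparisons, at 0.54 to 0.79, and GDH2 is filled at 48 h in mms2Δi, at 1.22.

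The deletions were also compared with each other. No gene passed by edgeR in log phase or at 48 h (0% of 6068), with 232 and 374 genes at an unadjusted p under 0.05, and DESeq2 called 4 and 11. At 48 h GDH2 had 403 and 607 CPM in mms2Δi and 319.8 and 285 CPM in ysf3Δi, a log2 fold change of 0.74 ± 0.26 (adjusted p of 0.738). UGA4 had 70.5 and 71.2 CPM in mms2Δi and 44.2 and 45.1 CPM in ysf3Δi, at 0.67 ± 0.25 (adjusted p of 0.743). GDH3 had 775 and 599 CPM against 835 and 1074 CPM, at -0.48 ± 0.18 (adjusted p of 0.743). For these 3 genes the libraries did not overlap and the difference did not pass. The libraries of GDH1, GLT1, GAD1 and UGA1 did not overlap either. The share of all genes without overlap is not given, so this does not single out any member. The other members lay between -0.40 and 0.29 at 48 h, and all 9 lay between -0.38 and 0.34 in log phase.

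Around these enzymes, the genes that supply 2-oxoglutarate mostly rose at 48 h. Beside 32.8 to 33.9% of all genes higher and 30.7 to 34.3% lower, of 12 such genes 8 rose and 3 fell in mms2Δi, 8 rose and 4 fell in ysf3Δi, and 8 rose and 3 fell in WT, with median log2 fold changes of 1.99, 1.75 and 1.70. The peroxisomal citrate synthase gene CIT2 rose by 6.90, 7.20 and 6.72 in mms2Δi, ysf3Δi and WT (adjusted p of 2.45e-08, 1.69e-08 and 2.55e-08). The cytosolic NADP-linked isocitrate dehydrogenase gene IDP2 rose by 6.02, 5.54 and 5.23 in the same order (adjusted p of 1.56e-08, 1.51e-08 and 2.20e-08). Of 6 genes for 2-oxoglutarate dehydrogenase and succinyl-CoA ligase 5, 5 and 4 rose and 1 fell in each, with KGD1, its first subunit, at 2.59, 2.15 and 1.67 (adjusted p of 2.78e-07, 7.52e-07 and 3.70e-06). At 48 h 7 of the 12 supply genes were higher in mms2Δi than in WT, with IDP2 at 0.96 (adjusted p of 0.0163) and ACO1, the aconitase gene, at 1.10 (adjusted p of 0.0258), beside 8.54% of all genes higher, and in ysf3Δi none was called. All 7 calls ended without both libraries of WT strain 1, where no gene of the table passed at 48 h and IDP2 stood at 0.92 (adjusted p of 0.174) and ACO1 at 1.01 (adjusted p of 0.272). With library totals 3 of the 12 were called.

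Among 18 regulators of nitrogen and GABA genes 7, 9 and 7 rose in mms2Δi, ysf3Δi and WT and 1 fell in each, beside the 32.8 to 33.9% of all genes that were higher and the 30.7 to 34.3% that were lower. UGA3, the activator of the UGA genes, rose by 1.30, 1.34 and 1.71 (adjusted p of 3.95e-06, 2.85e-06 and 5.08e-07), and GLN3, a GATA activator, by 1.41, 1.14 and 1.75 (adjusted p of 3.27e-05, 0.000146 and 6.00e-06). The gene that fell was DAL80, a GATA repressor, at -1.67, -1.84 and -2.17 (adjusted p of 1.96e-05, 8.79e-06 and 2.56e-06). Against WT in log phase 1 of the 18 was higher and 3 were lower in each deletion. Of all genes 13.9% were higher and 13.3% lower in mms2Δi, and 13.7% and 13.5% in ysf3Δi. DAL80 was among the lower ones, at -0.71 in mms2Δi (adjusted p of 0.0215) and -0.83 in ysf3Δi (adjusted p of 0.0105). Whether these calls of DAL80 hold without either WT strain is not given. At 48 h 2 were higher and 1 lower in mms2Δi (8.54% and 2.09% of all genes), and 1 higher and none lower in ysf3Δi (2.49% and 0.28%). GCN4, the activator of amino acid synthesis genes, was higher than in WT in mms2Δi at 48 h (1.58, adjusted p of 0.0152) and in log phase (1.19, adjusted p of 0.0168), and in ysf3Δi at 48 h (1.30, adjusted p of 0.0443) and in log phase (1.45, adjusted p of 0.00778). Without both libraries of WT strain 1 the calls at 48 h ended (1.21, adjusted p of 0.174 in mms2Δi, and 0.97, adjusted p of 0.298 in ysf3Δi), and in ysf3Δi that at 48 h also ended with strain number as a block (adjusted p of 0.0694) and with library totals (adjusted p of 0.0530). The call of mms2Δi in log phase ended without both libraries of WT strain 2 (0.90, adjusted p of 0.0990). GCN4 is controlled mainly at translation, which RNA levels do not show.

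Of 12 ammonium and amino acid transporter genes 3 rose and 5 fell in mms2Δi, 4 rose and 5 fell in ysf3Δi, and 4 rose and 6 fell in WT. Of all genes 32.8 to 33.9% rose and 30.7 to 34.3% fell. The shares that rose were thus near those of all genes, and the shares that fell were above them. The general amino acid permease gene GAP1 fell, at -3.60, -3.57 and -3.39 (adjusted p of 5.77e-08, 5.65e-08 and 6.73e-08). ADY2, an acetate transporter gene also tied to ammonium export, rose by 6.48, 8.52 and 6.73 (adjusted p of 2.18e-07, 7.59e-08 and 1.32e-07). Its relative ATO2 rose by 5.90, 6.54 and 5.10 (adjusted p of 1.88e-07, 9.24e-08 and 2.75e-07). In log phase ADY2 was lower in ysf3Δi than in WT (-2.09, adjusted p of 0.00973), and it was the only one of the 12 called there. Whether this call holds without either WT strain is not given. In mms2Δi 1 was higher and 1 lower in log phase, where 27.2% of all genes were called in each deletion. At 48 h none was called in mms2Δi (10.6% of all genes) and 1 was higher in ysf3Δi (2.77%).

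The next 3 lists cover enzymes that use glutamate or glutamine and enzymes that return glutamate from proline and arginine, beside 30.7 to 34.3% of all genes called lower at 48 h and 32.8 to 33.9% called higher. Of 16 glutamine amidotransferase genes 10, 11 and 8 fell and 2 rose in each, with medians of -0.84, -0.87 and -0.56. The asparagine synthetase gene ASN1 fell, at -2.35, -2.84 and -2.76 (adjusted p of 3.93e-06, 1.05e-06 and 1.19e-06). Of 14 transaminase and proline or arginine breakdown genes 6, 6 and 7 fell and 4 rose in each, and of 9 glutathione genes 5, 4 and 5 fell and 2 rose in each. In log phase 6 of the 14 were higher in mms2Δi and 7 in ysf3Δi than in WT, and none was lower, beside 13.9% and 13.7% of all genes called higher. Without both libraries of WT strain 2 these counts were 0 and 1, and with library totals 4 and 3 higher and 1 lower in each. BAT1, the mitochondrial branched-chain transaminase gene, was at 1.52 in mms2Δi (adjusted p of 0.0116) and 1.19 in ysf3Δi (adjusted p of 0.00889), and AAT2, a cytosolic aspartate transaminase gene, at 1.20 (adjusted p of 0.0116) and 1.05 (adjusted p of 0.00519). In mms2Δi both of these calls ended without WT strain 2 (adjusted p of 0.0920 for BAT1 and 0.0719 for AAT2), and in ysf3Δi that of BAT1 did (adjusted p of 0.0760). At 48 h 5 of the 14 were higher in mms2Δi and none in ysf3Δi, and without WT strain 1 none was in either. Of the amidotransferase genes 5 were higher in each deletion in log phase and 2 in mms2Δi at 48 h. Of the glutathione genes 2 and 1 were higher in log phase and 1 in each at 48 h. Among all genes 8.54% were higher at 48 h in mms2Δi and 2.49% in ysf3Δi. The 48 h counts of the amidotransferase and glutathione genes in mms2Δi thus lay near the share of all genes. Of the calls of these last lists none at 48 h held without WT strain 1 and none in log phase without WT strain 2. The 7 lists were chosen with earlier results of these libraries known.

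Likeness of pattern was measured as Pearson's r of log2 CPM over the 12 libraries, which share 1 large difference between the phases. It is a description with no test, and many genes lie past 0.9 for the members with a strong phase change. The genes most like GDH3 were CSR2 (0.999) and DIA3 (0.998), those most like GAD1 were SAF1 (0.996) and MSC1 (0.995), and those most like UGA4 were PUT1 (0.972) and COX2 (0.962). Most like GDH2 were HTA1 and NUP188 (both 0.996), and most like GLN1 were the ribosomal protein genes RPS8B (0.998) and RPL16B (0.997). SFM1 (0.985) and GVP36 (0.979) were nearest to UGA1, and AIM25 (0.930) and AMF1 (0.928) to UGA2. GDH1 was nearest to VMA13 (0.976) and SBH2 (0.974), with 74 genes past 0.9, against 1099 for GDH3 and 1142 for GLN1. No gene reached 0.9 with GLT1, for which DLS1 (0.779) and RKR1 (0.767) came nearest.

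The authors' deposited tables, which keep genes under their adjusted p of 0.001 per the file headers and names, listed 7 members for the phase change in mms2Δi, 6 in ysf3Δi and 7 in WT. The authors' deposited table gave GDH3 at 5.87, 6.67 and 7.01 in that order and GDH2 at -3.24, -4.35 and -4.54, on the log2 scale. Between genotypes the authors' deposited tables listed GDH1 in log phase for mms2Δi at 0.73, GDH2 at 48 h for mms2Δi at 1.05 and GDH1 at 48 h for ysf3Δi at 0.63, and no other member.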

How the data were processed

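Every test started from the deposited table of read counts. For it the submitters' processing notes name the tools Bowtie2, HTSeq and DESeq2 and the build sacCer3, without versions; the counting mode and strand setting are not given in the sources used here. The authors' gene tables hold log2 fold changes, their errors and adjusted p-values, per the file headers, and were used only as a comparison. A deposited FPKM table was not used.

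After filterByExpr and scaling with trimmed means of M-values (TMM), the quasi-likelihood test of edgeR 4.0.16 (R 4.3.3, limma 3.58.1) was run with 1 mean per group over all 12 libraries, 6 residual degrees of freedom, a common dispersion of 0.0279 and Benjamini-Hochberg adjustment over 6068 genes. Every adjusted p in the text comes from edgeR unless DESeq2 1.42.0 is named. The 11 comparisons were the phase change in each genotype, each deletion against WT in each phase, the deletions against each other in each phase, and the difference of each deletion's phase change from that of WT. The scripts were checked on simulated counts with known changes.

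Levels per kilobase use coding lengths of the RefSeq R64 annotation, to which 6048 identifiers matched by systematic name, 31 by symbol and 7 by synonym. Python 3.11.15 with pandas 2.3.3 made the tables. The members and the 7 gene lists were chosen with earlier results of these data known. All 9 members are named in every comparison, one by one for the phase changes and elsewhere where called or at an unadjusted p under 0.1. Of each list up to 4 called genes with the smallest adjusted p could be named, and the 2 genes with the highest r were named as most like each member.

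Same-numbered libraries of a genotype are the same strain in both phases per the labels, so strain was a block in an alternative. The correlation between a strain's deviations from the group means in both phases was 0.0605 in mms2Δi, 0.0374 in ysf3Δi and -0.164 in WT. Strain numbers do not pair the genotypes. In comparisons between genotypes the block was the strain number, which is an arbitrary label there. A call that ended with it shows closeness to the threshold and was no test of strain or batch. Over genes, log2 CPM of replicate libraries correlated at 0.980 to 0.993, and 18.2 to 46.7% of genes differed between them by over 3 counting standard deviations. So in no group were the 2 libraries 1 library deposited again. Libraries of different groups were not compared in this way. Other alternatives were DESeq2's scaling and Wald test, library totals, no filter, a stricter threshold, only the libraries compared, and leaving out each library or each WT strain.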

Additional observations from a re-analysis of the deposited data

Results flagged for a closer look

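GLT1, the glutamate synthase gene, had strain ratios between the phases below 1 in mms2Δi and above 1 in WT, although its phase change in mms2Δi did not pass (-0.20, adjusted p of 0.358) and the libraries of that genotype overlapped between phases. Its log2 CPM ratio of 48 h to log phase was -0.20 and -0.19 in strains 1 and 2 of mms2Δi, and 0.66 and 0.77 in WT. In the edgeR fit the phase change of mms2Δi minus that of WT was -0.92 ± 0.26, with an unadjusted p of 0.00457 and an adjusted p of 0.502. It thus did not pass over all genes. DESeq2 gave -0.95 with an adjusted p of 0.0179, adjusted over only the 1370 genes that its filter kept. In ysf3Δi the log2 CPM ratios were 0.07 and 0.32, so both strains were slightly higher at 48 h.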

How the results depend on the processing

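Results are log2 fold changes of the members reported one by one and counts of members called. DESeq2's test came with its own scaling and filter, and fits on fewer libraries filtered anew; the other alternatives changed 1 choice. Of the phase calls, those of GDH2, GDH3, GLN1, GAD1 and UGA1 held in every alternative in each genotype. The mms2Δi group against WT at 48 h had 1 member called (main 2) with DESeq2's scaling, library totals, no filter, only the libraries compared and the replicate block, 0 without WT strain 1 and 4 by DESeq2's test; in log phase it had 5 by DESeq2, 4 with only the libraries compared and 0 without WT strain 2. The ysf3Δi strains had 1 in log phase with only the libraries compared or the replicate block and 0 without WT strain 2, and at 48 h 0 with library totals, the replicate block or without WT strain 1. An adjusted p under 0.001 left 0 in these 4 comparisons. DESeq2 called 3 members for the difference of phase changes in mms2Δi, with adjustment over 1370 genes. Leaving out 1 library gave 7 to 8 members for the phase change in mms2Δi, 6 to 7 in ysf3Δi and 7 in WT, 0 to 4 for mms2Δi in log phase and 0 to 3 at 48 h, and 0 to 3 and 0 to 1 for ysf3Δi. A fit left with 1 library in a group assumes that it varies like the other groups. The change of GDH1 between phases in WT turned to 0.0280 without WT strain 1, and that of GLT1 in ysf3Δi ran from -0.0481 to 0.35 without 1 library; neither was called. The cause was not tested.

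Without division by length GDH3's share in WT in log phase was 1.42%, and GDH2's share of GDH1 plus GDH2 was 46.4% at 48 h and 86.4% in log phase in mms2Δi, 32.1% and 89.0% in ysf3Δi and 35.3% and 92.0% in WT, as GDH2 is the longer gene. Library totals moved the median of all genes by -0.15 (mms2, log), -0.12 (mms2, 48 h), -0.18 (ysf3, log) and -0.10 (ysf3, 48 h) against WT, with 602 genes higher and 1351 lower in mms2Δi in log phase (main 842 and 809) and 613 and 1443 in ysf3Δi (830 and 822); at 48 h the splits were 315 and 279 (518 and 127) and 95 and 35 (151 and 17). Over all genes, the mms2Δi group at 48 h had 645 calls in the main test, 987 by DESeq2, 235 with only the libraries compared, 390 with the replicate block and 0 without WT strain 1. The ysf3Δi group at 48 h had 168, against 452, 547, 0 and 0 in the same order and 333 without WT strain 2. In log phase mms2Δi had 1651, against 13 without WT strain 2, and ysf3Δi 1652, against 620 with only the libraries compared and 165 without WT strain 2. Leaving out 1 library gave 0 to 2029 and 0 to 842 calls for mms2Δi in log phase and at 48 h and 38 to 1603 and 0 to 282 for ysf3Δi. The contrast with WT thus rests on few libraries, and 2 libraries per group limit all of it.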
